A study of Mus musculus with 15 samples.

Results

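The first hour after an oral peanut challenge was compared with no challenge in epithelial cells released from the mouse jejunum. The early challenged libraries are the 3 taken 30 min and the 3 taken 60 min after challenge, chosen by the challenge and time in their labels, and the unchallenged libraries are the 3 from mice given PBS and the 3 from mice sensitized to peanut. These 12 of the 15 libraries of the study were compared 6 against 6, and the 3 libraries taken at 120 min are given only as levels. All mice were of the strain CC027/GeniUnc. The sensitized mice received 2 mg of crude peanut extract into the stomach once a week for 3 weeks and 5 mg in week 4, and the PBS mice received PBS on the same schedule. Challenged mice, all of them sensitized, then received 12 mg of peanut extract, and the labels say that unchallenged mice were killed at the same time. The labels used here give no age or sex. Cells came from 4 cm of jejunum beginning 6 cm beyond the pylorus, released with the chelator EDTA (2 mM) and the reductant DTT (0.5 mM) over 75 min.

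The pooled design sets more libraries on each side than any single time point, and it joins groups that differ in more than challenge. All 6 early challenged mice were sensitized and 3 of the 6 unchallenged mice were not, so a part of any difference due to sensitization cannot be told apart from challenge in the pooled value. No sensitized mice that received only vehicle as a challenge were analysed here, so gavage and handling cannot be told apart from peanut either. The titles carry a different number for each library, and they were taken as separate mice. The p-values measure the spread between these libraries.

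The lining of the small intestine is renewed from dividing stem cells at the crypt base, where Paneth cells also sit, and its cells mature as they move up the villus into absorptive enterocytes, mucus-making goblet cells and hormone cells. In food allergy, allergen that crosses this lining can trigger mast cells armed with IgE, which release histamine and proteases within minutes. Heat shock and immediate early genes are known to respond to stress or stimulation within the same span. Their levels here were read after the release of the cells with EDTA and DTT. That step was the same for every library and lasted longer than either early challenge time. Its part in the levels of these genes was not tested.

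Library totals ran from 15661513 to 22691349 estimated counts. Mitochondrially encoded genes took 14.04% of the counts in 60 min replicate 1 and 33.24% in 60 min replicate 3, which also stood apart on the second principal component (-74.5, with 19.8% of the variance). Marker genes of stromal, endothelial and muscle cells summed to 64.0 CPM (counts scaled to a common library total) in 30 min replicate 1 and to 12.1 to 29.7 CPM in the other 11 libraries. These sums hold 4 of the 15 markers, as the rest were too low to test. All 11 general epithelial markers were expressed and summed to at least 13111 CPM in every library. Of 28019 genes with any count, 13774 were abundant enough to test.

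No gene passed an adjusted p under 0.05 in the 6 against 6 comparison (0 of 13774, edgeR's quasi-likelihood test with Benjamini-Hochberg adjustment, 0% called), and the lowest adjusted p was 0.0601. Limma-voom also called 0 genes, with 1833 at an unadjusted p under 0.05, and DESeq2 called 207 of 14370 (1.44%), of which 126 were higher and 81 lower after challenge. In edgeR, 1894 genes (13.8%) had an unadjusted p under 0.05. Of these, 1095 (7.95% of genes tested) were higher and 799 (5.8%) lower after challenge. The adjusted p was under 0.1 for 2 genes, under 0.15 for 145 and under 0.2 for 381. In 176 genes (1.28%) the 6 early challenged and 6 unchallenged libraries did not overlap, and 93 of them (0.675%) were higher and 83 (0.603%) lower.

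The absence of calls depended on single libraries. Without 30 min replicate 1, edgeR called 115 of 13861 genes (0.83%), 81 higher and 34 lower. Without PBS replicate 1 it called 23, and without any 1 of the other 10 libraries it called 0. Besides its stromal markers, 30 min replicate 1 had the highest mean log2 CPM of the 12 libraries for several lists. These were the Paneth cell (9.02), macrophage and dendritic cell (3.91) and T cell and intraepithelial lymphocyte (3.29) lists. Why the calls depended on it was not tested. DESeq2 and the edgeR test without 30 min replicate 1 shared 81 called genes. The median log2 fold change over all 13774 genes was -0.01. Because no gene passed in the main comparison, levels and fold changes are given below as values, as higher or lower in these libraries, with the edgeR p of each.

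The gene with the smallest p was Abhd3 (ENSMUSG00000002475.16), a phospholipase of the α/β-hydrolase family. It ran from 45.8 to 60.9 CPM (median 55.8) in the unchallenged and from 36.7 to 41.1 CPM (median 37.5) in the early challenged libraries. The groups did not overlap, and every early challenged library lay below the lowest control, PBS replicate 1. The log2 fold change was -0.52 ± 0.07 (standard error, edgeR adjusted p = 0.0601), near -0.54 at 30 min and -0.51 at 60 min. On a scale set over all 15 libraries Abhd3 was back at 47.9 to 58.3 CPM at 120 min, within the range of the unchallenged libraries.

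Several of the next genes in order of p act on histones, and those named here were higher after challenge. Phf20, a reader subunit of a histone H4 acetyltransferase complex (chr2:156196466-156309952, GRCm38), ran from 8.30 to 10.9 CPM (median 9.18) without and from 13.4 to 17.3 CPM (median 14.9) with early challenge. The lowest early challenged library was above the highest control, and the log2 fold change was 0.66 ± 0.10 (edgeR adjusted p = 0.0882). Asxl1, a subunit of the deubiquitinase that acts on histone H2A (chr2:153345829-153404007), ran from 32.4 to 40.4 CPM (median 35.9) and from 44.6 to 59.2 CPM (median 54.1). Its groups did not overlap either, and its log2 fold change was 0.52 ± 0.09 (edgeR adjusted p = 0.125). Setd1a, a histone H3 lysine methyltransferase, differed by 0.37 ± 0.07 and Phf12, a subunit of a deacetylase complex, by 0.39 ± 0.08. Riox1, a ribosomal oxygenase and histone demethylase, differed by 0.60 ± 0.11, and Uri1, a prefoldin-like protein bound to RNA polymerase subunits, by 0.40 ± 0.08. These 4 genes were without overlap between the groups. Smarcc1, a core subunit of the SWI/SNF chromatin remodeller, was higher by 0.54 ± 0.10, and its highest control, at 57.2 CPM, lay above the lowest early challenged library, at 55.5 CPM.

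Of the 12 genes with the smallest p, 4 were lower after challenge, Abhd3 among them, and 8 were higher. Arl14, a small GTPase of vesicle transport, ran from 10.8 to 15.2 CPM (median 13.0) in the unchallenged and from 6.38 to 10.1 CPM (median 7.53) in the early challenged libraries, with a log2 fold change of -0.76 ± 0.14. Oasl1, an interferon-stimulated gene, ran from 20.96 to 32.05 CPM (median 24.1) and from 10.1 to 18.6 CPM (median 15.3), with a log2 fold change of -0.75 ± 0.15. Both genes were without overlap. Atp6v0e, a subunit of the proton pump of lysosomes, was lower by -0.38 ± 0.07. Tubb5, the β-tubulin of dividing cells, ran from 83.9 to 126 CPM (median 106) and from 136 to 166 CPM (median 149), without overlap, and its log2 fold change was 0.52 ± 0.10. For each of these 10 genes after Phf20 the edgeR adjusted p was 0.125.

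**Figure D1:**
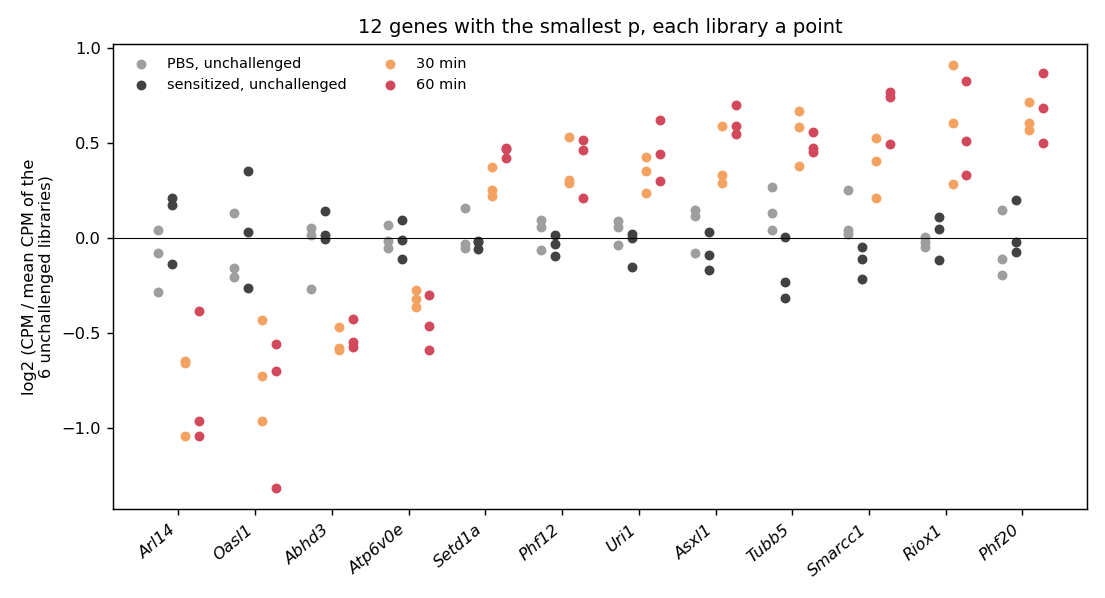
Level of the 12 genes with the smallest p in each library, as log2 of its CPM over the mean CPM of the 6 unchallenged libraries (y axis), with genes on the x axis and 1 point a library, coloured by group. The 30 min and 60 min points lie on the same side of 0 for every gene, and they overlap with a control only for Smarcc1.

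Heat shock chaperone genes were lower after early challenge, in every member tested. Besides cytosolic chaperones and cochaperones, the list holds the mitochondrial chaperonin genes Hspd1 and Hspe1 and the transcription factor gene Hsf1. Of 16 tested members of the heat shock list, 16 had a log2 fold change below 0 (51.1% of all genes did), with a list median of -0.24. Of the 16, 8 had an unadjusted p under 0.05 in that direction (5.8% of all genes) and 4 did not overlap between the groups (0.603% of all genes). DESeq2 called 6 of them lower (0.564% of genes), and edgeR without 30 min replicate 1 called 1, Dnajb1 (0.245%). Averaged over the list, log2 CPM ran from 6.75 to 7.27 in the unchallenged and from 6.16 to 6.60 in the early challenged libraries, so the groups were separate. Of the unchallenged, sensitized replicate 3 was highest at 7.27 and sensitized replicate 2 lowest at 6.75, so PBS and sensitized mice were interleaved.

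Within the list the inducible HSP70 genes had the largest fold changes. Hspa1a ran from 51.2 to 314 CPM (median 66.3) in the unchallenged and from 10.6 to 41.5 CPM (median 17.6) in the early challenged libraries. Hspa1b ran from 83.4 to 395 CPM (median 113) and from 13.1 to 66.8 CPM (median 36.3). Neither gene overlapped between the groups, and the log2 fold changes were -2.33 ± 0.54 and -2.08 ± 0.47 (edgeR adjusted p = 0.146 for both). Their coding sequences are nearly identical, so the division of reads between them is uncertain. Sensitized replicate 3 had the highest level of both genes, 314 and 395 CPM, far above the other controls. Leaving out single libraries moved the log2 fold change of Hspa1a between -2.64 and -1.62 and that of Hspa1b between -2.34 and -1.56.

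The cochaperones of HSP70 followed the same direction. Dnajb1, the main J-domain partner of inducible HSP70 (chr8:83608193-83612653), ran from 144.5 to 209 CPM (median 152) in the unchallenged and from 69.8 to 136 CPM (median 99.9) in the early challenged libraries. Its groups did not overlap, and its log2 fold change was -0.71 ± 0.15 (edgeR adjusted p = 0.125), with -0.48 at 30 min and -0.98 at 60 min. Dnaja1, a J-domain protein of the same family, was lower by -0.46 ± 0.11, also without overlap. Hsph1, the HSP110 nucleotide exchange factor (chr5:149614287-149636376), ran from 53.8 to 125 CPM (median 84.4) and from 38.3 to 55.2 CPM (median 46.1), and only sensitized replicate 2 of the controls lay within the early challenged range. Its log2 fold change was -0.93 ± 0.18 (edgeR adjusted p = 0.125). The constitutive HSP70 gene Hspa8 was at -0.21 and the constitutive HSP90 gene Hsp90ab1 at -0.05, with 0.018 when PBS replicate 1 was left out.

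Chaperones of the endoplasmic reticulum (ER), where secreted and membrane proteins fold, were lower as well. Of 18 tested members 14 had a log2 fold change below 0, and the list median was -0.24. Of the 18, 11 had an unadjusted p under 0.05, all lower (5.8% of all genes in that direction). Averaged over the list, log2 CPM overlapped, at 6.92 to 7.24 in the unchallenged and 6.75 to 7.00 in the early challenged libraries. Hspa5, the ER HSP70 known as BiP (chr2:34771970-34777547), ran from 1147 to 1648 CPM (median 1469) in the unchallenged and from 831 to 1100 CPM (median 982) in the early challenged libraries. The ranges were separate, and the log2 fold change was -0.56 ± 0.11 (edgeR adjusted p = 0.125). Dnajb9, a J-domain cochaperone of BiP, was lower by -0.51 ± 0.13, without overlap. Syvn1, the ubiquitin ligase that marks misfolded ER proteins for degradation, was lower by -0.41 ± 0.11 and overlapped. Hsp90b1, the ER HSP90, was at -0.29 ± 0.09, Calr, the lectin chaperone calreticulin, at -0.31 ± 0.10 and Creld2, an ER stress gene, at -0.56 ± 0.16.

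**Figure D2:**
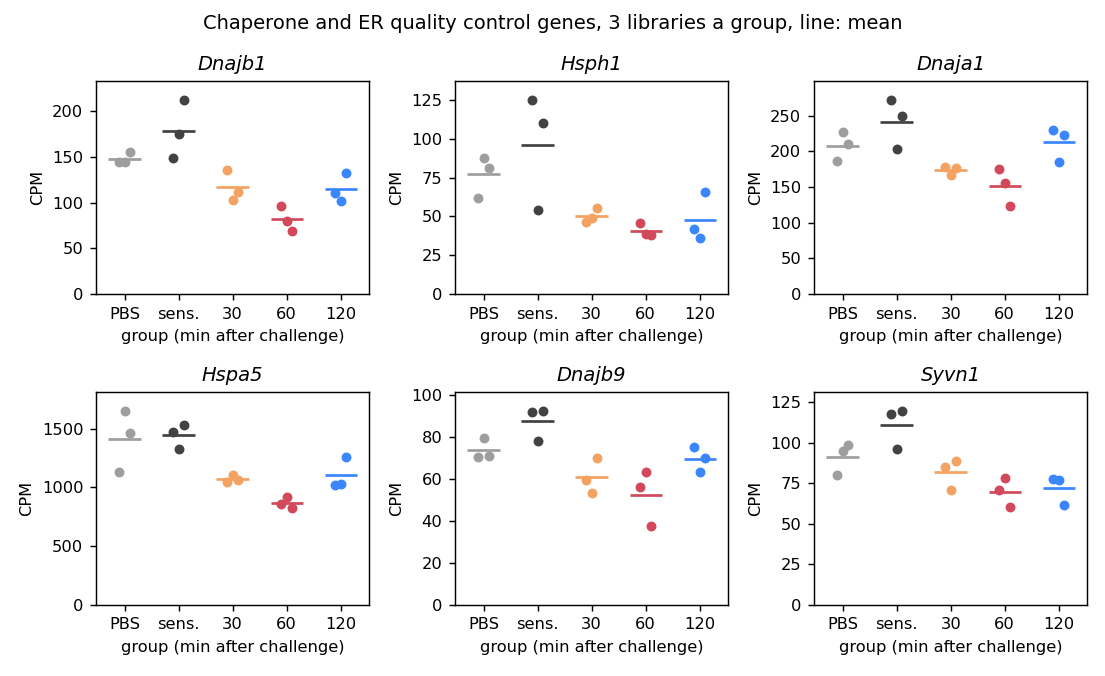
CPM (y axis, from 0, scaled over all 15 libraries) of 3 cytosolic and 3 ER quality control genes in the 5 groups of 3 libraries (x axis: PBS and sensitized unchallenged, then 30, 60 and 120 min after challenge), each point a library and each line a group mean. Dnajb1 and Hspa5 have their lowest means at 60 min, and at 120 min they were at 101.9 to 132 and 1021 to 1261 CPM.

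Promoters of these genes were searched for the letters of the elements that heat shock and ER stress factors are known to bind, to show what the 2 chaperone groups carry in their sequence. Windows of 300 bases, from 250 before to 50 after the start, came from RefSeq (GRCm38.p6), and 10123 of the 13774 tested genes had one. The ER stress element (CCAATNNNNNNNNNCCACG, either strand) was in 7 of 16 windows of the ER list (43.8%), in 0.178% of windows of tested genes and in 0.119% of all 32817 windows. The matches are in capitals, with 5 bases on each side, 5′ to 3′ on the strand of the gene, and Calr and Creld2 carry it reversed.
Hspa5 (chr2:34772020-34772048, + strand): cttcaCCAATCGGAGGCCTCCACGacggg
Syvn1 (chr19:6046527-6046555, + strand): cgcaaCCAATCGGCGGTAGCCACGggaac
Hsp90b1 (chr10:86705633-86705661, - strand): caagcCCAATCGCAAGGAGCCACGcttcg
Dnajc3 (chr14:118937822-118937850, + strand): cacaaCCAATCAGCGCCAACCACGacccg
Pdia6 (chr12:17266486-17266514, + strand): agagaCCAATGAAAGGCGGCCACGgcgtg
Calr (chr8:84847070-84847098, - strand): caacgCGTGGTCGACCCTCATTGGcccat
Creld2 (chr15:88819515-88819543, + strand): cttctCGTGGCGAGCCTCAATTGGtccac
Of these 7 genes, 6 were lower after challenge, by -0.18 (Dnajc3, a cochaperone of BiP) to -0.56, and Pdia6, a disulfide isomerase, was at 0.47 ± 0.33. Dnajb9, which was lower without overlap, has no exact match in its window.

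The heat shock element (3 alternating units of GAA and TTC joined by NN, either strand) was in 3 of 12 windows of the heat shock list (25%), in 0.454% of windows of tested genes and in 0.603% of all windows. The 3 genes are shown with the matched letters in capitals, and the match of Hsph1 lies after the start, so close to the end of the window that 1 base follows it.
Hspe1 (chr1:55088054-55088076, + strand): gtccgTTCTAGAACCTTCCGGAA
Chordc1 (chr9:18292258-18292280, + strand): aaccgGAACGTTCGGGAAAATTC
Hsph1 (chr5:149636287-149636305, - strand): gcagaTTCTGGAAAGTTCt
The log2 fold changes were -0.93 ± 0.18 for Hsph1, -0.24 ± 0.17 for Hspe1, the mitochondrial cochaperonin, and -0.24 ± 0.12 for Chordc1, an HSP90 partner. Dnajb1, Hspa1a and Hspa1b have no exact match in their windows. Elements with a changed letter, or outside the window, were not searched for, so these genes may still carry one.

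Genes of cell division were higher after challenge, on average and in each member. All 24 tested members of the mitosis list had a log2 fold change above 0 (48.9% of all genes did), with a list median of 0.38. Of these, 15 had an unadjusted p under 0.05 (7.95% of all genes in that direction) and 1, Cenpe, did not overlap between the groups (0.675%). DESeq2 called 7 of the 24 higher (0.877% of genes) and edgeR without 30 min replicate 1 called 5 (0.584%). In bulk RNA, here and below, more or fewer cells of a type and more or less RNA per cell cannot be told apart.

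Cenpe, the kinetochore motor that aligns chromosomes, ran from 22.5 to 33.4 CPM (median 24.7) in the unchallenged and from 33.6 to 42.8 CPM (median 38.0) in the early challenged libraries. The ranges nearly touched, and the log2 fold change was 0.53 ± 0.11 (edgeR adjusted p = 0.125). Kif11, the motor that separates the spindle poles (chr19:37376403-37421859), ran from 17.4 to 27.4 CPM (median 21.8) and from 26.5 to 37.7 CPM (median 34.6), with a log2 fold change of 0.59 ± 0.12. Nusap1, a microtubule binder of the spindle, was higher by 0.64 ± 0.14, and Mki67, the coat protein of mitotic chromosomes, by 0.63 ± 0.15. Top2a, the topoisomerase that untangles sister chromosomes, ran from 42.0 to 84.7 CPM (median 56.3) and from 63.2 to 152 CPM (median 89.3). Its groups overlapped, and its log2 fold change was 0.69 ± 0.21. Ccna2, the cyclin of S phase and mitotic entry, was higher by 0.52 ± 0.12. Chosen after their values were seen, the spindle midzone protein Prc1 (0.57 ± 0.13) and the condensin subunit Ncaph (0.58 ± 0.14) did not overlap between the groups.

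The size of the difference in mitosis genes varied with the control. Averaged over its members, log2 CPM ran from 3.88 to 4.20 in the sensitized controls, from 4.32 to 4.74 in the PBS controls and from 4.52 to 4.97 after early challenge. PBS replicate 1, at 4.74, lay among the challenged libraries, and the other 5 controls lay below all 6 of them. Against the sensitized controls alone the list median was 0.67, and against the PBS controls alone it was 0.18. Sensitized against PBS libraries without challenge gave a list median of -0.39, in a comparison with 0 genes called by edgeR and 215 (1.56%) at an unadjusted p under 0.05.

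**Figure D3:**
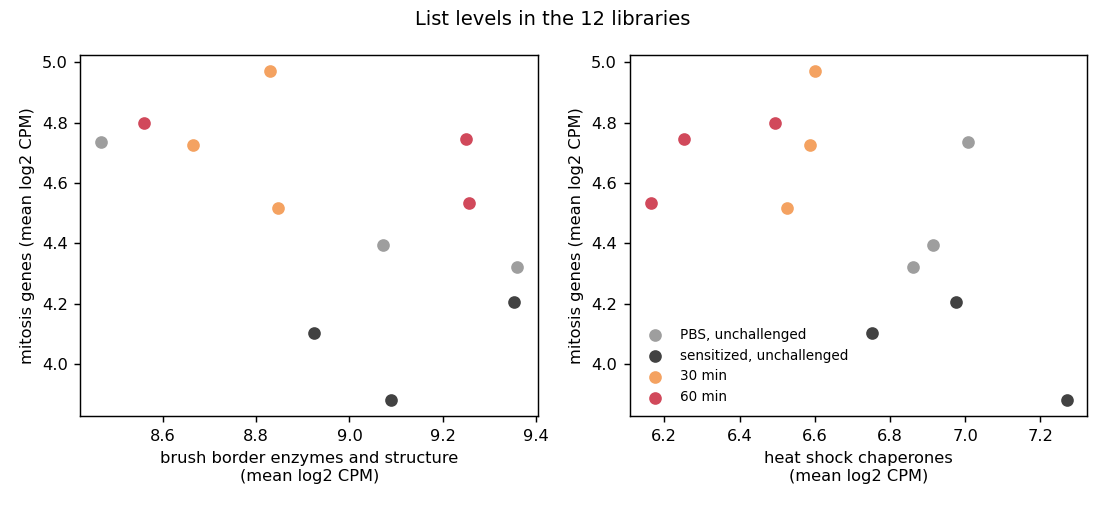
Mean log2 CPM of the 24 mitosis genes (y axis) against that of the brush border list (left) and the heat shock list (right) in the 12 libraries, 1 point a library, coloured by group. Heat shock levels separate the early challenged libraries (6.16 to 6.60) from the controls (6.75 to 7.27), mitosis levels do so except for 1 PBS library, and brush border levels overlap.

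The CHR letters (TTTGAA, either strand), known from promoters of genes switched on late in the cell cycle, were in 14 of 21 windows of the mitosis list (66.7%), in 12.3% of windows of tested genes and in 17.9% of all windows. Kif11 is shown as the member with a match and a small p, with the 150 bases before its RefSeq start and the match, reversed, in capitals.
Kif11 (chr19:37376232-37376381, + strand): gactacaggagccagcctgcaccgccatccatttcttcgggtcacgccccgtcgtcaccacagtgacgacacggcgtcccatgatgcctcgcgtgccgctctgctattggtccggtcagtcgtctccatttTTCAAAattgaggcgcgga
In all, 9 motifs were searched. The CCAAT box (CCAAT), which is also the first part of the ER stress element, was in 15 of 16 ER windows (93.8%), 16 of 21 mitosis windows (76.2%), 6 of 12 heat shock windows (50%) and 38.9% of windows of tested genes. The E-box (CACGTG) was in 2 of 16, 1 of 21 and 2 of 12 (10.1% of tested genes), the cAMP response element (TGACGTCA) in 0, 2 and 0 (3.13%) and the antioxidant response element (TGACNNNGC) in 3, 3 and 2 (14.7%). The D-box (TTATGTAA, 0.494% of tested genes) and the HNF4 site (CAAAGTCCA, 0.524%) were in none of the windows of these 3 lists. All were read on both strands, and a match describes letters in a window only.

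Other genes of the crypt were also higher on balance. Of 22 DNA replication genes 19 had a log2 fold change above 0, with a median of 0.16. Of the 22, 6 had an unadjusted p under 0.05, all higher (7.95% of all genes in that direction). The DNA replication median was 0.25 at 30 min and 0.08 at 60 min, and without 30 min replicate 2 it was 0.089. Lig1, the ligase that joins Okazaki fragments, ran from 20.1 to 32.6 CPM (median 31.5) without and from 33.9 to 46.9 CPM (median 37.5) with early challenge, without overlap, and its log2 fold change was 0.41 ± 0.12 (edgeR adjusted p = 0.174). The catalytic subunits of the leading strand and primase polymerases, Pole and Pola1, were higher by 0.36 ± 0.12 and 0.38 ± 0.13 and overlapped.

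Stem cell and Wnt genes had 14 of 16 members above 0 and a median of 0.22. Of the 16, 5 had an unadjusted p under 0.05, all higher (7.95% of all genes), and 8 did without 60 min replicate 3. Lgr5, the receptor that marks crypt base stem cells, ran from 13.1 to 29.5 CPM (median 24.1) and from 27.6 to 37.3 CPM (median 34.4). The groups overlapped, and the log2 fold change was 0.57 ± 0.16 (edgeR adjusted p = 0.169). At 120 min Lgr5 was at 13.2 to 21.9 CPM, below all 6 early challenged libraries on the common scale. Ephb3, a receptor that positions crypt cells, was higher by 0.42 ± 0.10, and Znrf3, a ligase that removes Wnt receptors, by 0.56 ± 0.15. Chosen after their values were seen, the cyclin-dependent kinase gene Cdk6 (0.60 ± 0.14) and the receptor gene Notch2 (0.68 ± 0.20), which keeps crypt cells from secretory fate, did not overlap between the groups. Of all genes, 0.675% were higher without overlap.

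Paneth cells, which release antimicrobial peptides at the crypt base, showed 12 of 14 tested markers above 0, with a median of 0.44. Of the 14, 7 had an unadjusted p under 0.05, all higher (7.95% of all genes in that direction). Itln1, an intelectin that binds microbial sugars, ran from 873 to 1496 CPM (median 1066) in the unchallenged and from 1097 to 2860 CPM (median 1704) in the early challenged libraries. The groups overlapped, and the log2 fold change was 0.70 ± 0.20 (edgeR adjusted p = 0.169). The α-defensins Defa17 and Defa24 were higher by 0.57 ± 0.16 and 0.43 ± 0.15, and since defensin genes are near copies of each other their reads may be divided wrongly. PBS replicate 1 had the highest Paneth level of the controls (8.79, mean log2 CPM), as it had for mitosis. Paneth levels overlapped, at 7.72 to 8.79 in the unchallenged and 7.94 to 9.02 in the early challenged libraries. As for mitosis, the controls differed, and sensitized against PBS libraries without challenge gave a Paneth list median of -0.39.

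At 120 min these crypt levels were not all as high. Itln1 was then at 465.7 to 838 CPM and Defa24 at 615.5 to 1420 CPM, and Kif11 was at 20.9 to 30.8 CPM. No test was made with the 120 min libraries.

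Chromatin remodelling genes were higher on balance. Of 16 tested SWI/SNF and related chromatin genes 14 were above 0, with a median of 0.22. Of the 16, 8 had an unadjusted p under 0.05, all higher (7.95% of all genes in that direction). Beside Smarcc1, Arid1b, a DNA-binding subunit of the same remodeller, was higher by 0.36 ± 0.11, and Kmt2c, a histone methyltransferase of enhancers, by 0.31 ± 0.11. The list median was 0.12 at 30 min and 0.31 at 60 min, and without PBS replicate 2 or 60 min replicate 2 the members with such a p numbered 5. The list of nuclear retained and long genes, whose level can reflect RNA quality, was also higher. That list had a median of 0.27, with 0.03 at 30 min, 0.52 at 60 min and 0.082 without 60 min replicate 3. The same library had the highest mean log2 CPM of the 12 in both lists, 6.23 for SWI/SNF genes and 7.31 for nuclear retained and long genes, and without it the SWI/SNF median was 0.16. The part of RNA quality in the difference was not tested. Chd4, the remodelling ATPase of the NuRD complex, ran from 182 to 217 CPM (median 208) and from 220 to 331 CPM (median 262), without overlap, and Hcfc1, a scaffold of methyltransferase complexes, was higher by 0.48 ± 0.10, also without overlap. Both were chosen after their values were seen, and 0.675% of all genes were higher without overlap.

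Ribosome biogenesis genes had 12 of 17 members above 0, with a median of 0.15, and 7 at an unadjusted p under 0.05 in the higher direction (4 without 60 min replicate 1) and 1 in the lower. The shares of all genes were 7.95% and 5.8%. Polr1a, the largest subunit of RNA polymerase I, was higher by 0.55 ± 0.14 and nucleolin (Ncl) by 0.37 ± 0.10. Mdn1, the giant ATPase that matures the large ribosomal subunit and is a member of the list of long and nuclear retained genes, was higher by 0.54 ± 0.11. All 3 overlapped between the groups. Myc, which is known to drive these genes, was the member with an unadjusted p under 0.05 in the lower direction. It ran from 21.2 to 26.4 CPM (median 23.04) without and from 11.4 to 20.5 CPM (median 19.8) with early challenge. The groups did not overlap, and the log2 fold change of Myc was -0.34 ± 0.13 (edgeR adjusted p = 0.272).

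**Figure D4:**
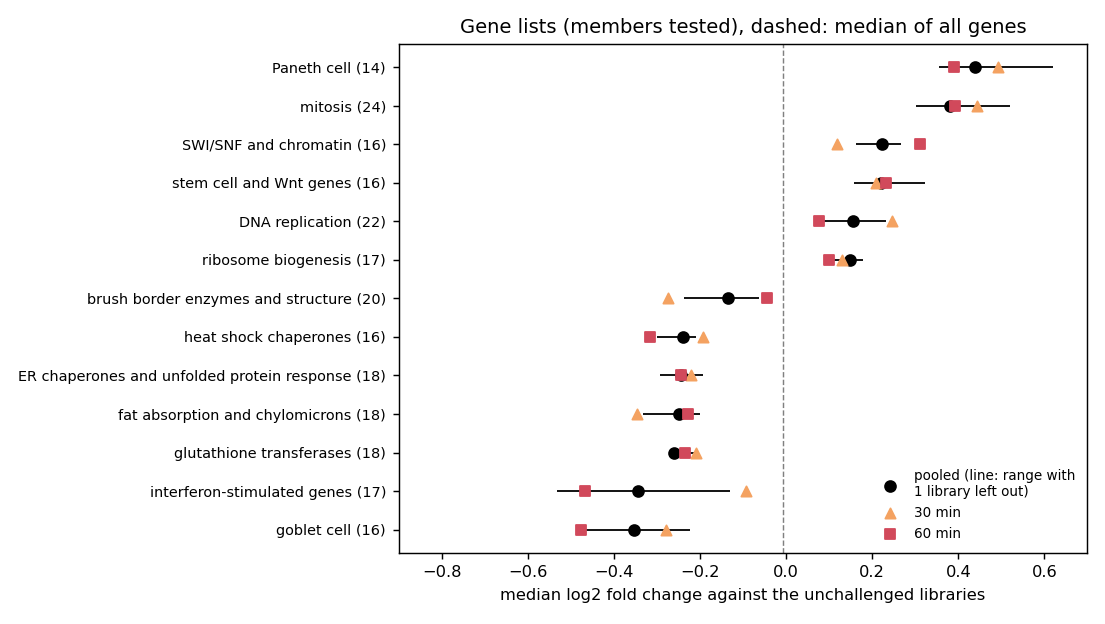
Median log2 fold change of 13 gene lists against the 6 unchallenged libraries (x axis), with the number of members tested after each name. Black points are the pooled comparison with a line for its range when single libraries are left out, triangles the 30 min and squares the 60 min libraries. Paneth and mitosis genes lie highest (0.44 and 0.38) and goblet and interferon-stimulated genes lowest (-0.35 and -0.34) of the lists drawn.

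Immediate early genes, which respond to signals within minutes without new protein, were lower on balance by a small amount. Of 19 tested, 14 were below 0, the median was -0.09, and 4 had an unadjusted p under 0.05 in the lower and 1 in the higher direction. The shares of all genes were 5.8% and 7.95%. Mean log2 CPM of the immediate early genes was 7.33 in 60 min replicate 3, 8.07 to 8.22 in the other 5 early challenged libraries and 8.08 to 8.29 in the unchallenged. The median was -0.05 without 60 min replicate 3 and -0.16 without 30 min replicate 2, and 2 members had a p under 0.05 in the lower direction without any 1 of the sensitized libraries or 60 min replicate 2. Fosb, a partner of Jun in AP-1, ran from 1104 to 1404 CPM (median 1294) in the unchallenged and from 467 to 1141 CPM (median 899) in the early challenged libraries. Its groups overlapped, and its log2 fold change was -0.58 ± 0.17 (edgeR adjusted p = 0.182). Atf3, a stress-induced repressor, ran from 898 to 1092 CPM (median 974) and from 307 to 875 CPM (median 819), without overlap, and 60 min replicate 3 was its lowest library, as for Fos. Egr2, a zinc finger factor, was higher by 0.31 ± 0.12. Fos and Egr1, the genes most used as markers of acute stimulation, were at -0.09 ± 0.12 and 0.05 ± 0.12, with ranges of 1333 to 1634 against 929 to 1600 CPM and 1183 to 1505 against 1178 to 1911 CPM. Both overlapped widely. Csrnp1, a nuclear transcription factor chosen after its value was seen, ran from 90.7 to 105 CPM (median 96.9) and from 35.0 to 83.1 CPM (median 63.9), without overlap.

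Stress genes downstream of ATF4 had 12 of 16 members below 0, with a median of -0.22 that was -0.14 without 60 min replicate 3 and -0.15 without 30 min replicate 2. Ddit4, an inhibitor of mTORC1 that glucocorticoids and hypoxia also induce, went the other way. It ran from 38.0 to 49.1 CPM (median 43.0) in the unchallenged and from 43.1 to 117 CPM (median 76.7) in the early challenged libraries, with overlap, and its log2 fold change was 0.83 ± 0.22 (edgeR adjusted p = 0.158). Ppp1r15a, which restores translation after stress, was at -0.41 ± 0.18. Slc3a2, the heavy chain of amino acid exchangers, was at -0.25 ± 0.10.

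Genes of the absorptive villus cell were lower on balance, by small amounts, and single members rarely had a small p. Of 20 brush border enzyme and structure genes 19 were below 0, with a median of -0.14. One member, Ezr, had an unadjusted p under 0.05, in the lower direction (5.8% of all genes did). Ezrin (Ezr), which ties microvilli to the membrane, ran from 624 to 901 CPM (median 841) and from 549 to 732 CPM (median 653), and the groups overlapped. Sucrase-isomaltase (Sis) ran from 3083 to 5373 CPM (median 4307) and from 2769 to 4631 CPM (median 3506), with a log2 fold change of -0.28 ± 0.16, and trehalase (Treh) was at -0.38 ± 0.21. The list median was -0.27 at 30 min and -0.04 at 60 min. Leaving out PBS replicate 1 or 2, sensitized replicate 1 or any 1 of the 60 min libraries moved it by over 1.5 times, within -0.24 to -0.06.

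All 10 hexose transport and fructose genes were below 0, with a median of -0.24. Of the 10, 1 had an unadjusted p under 0.05 (5.8% of all genes, lower), the glucose-6-phosphatase gene G6pc at -0.71 ± 0.25. Of 12 amino acid and peptide transport genes 11 were below 0, with a median of -0.14, and Slc7a9, the light chain of the cystine transporter, was at -0.28 ± 0.09. The amino acid and peptide transport median was -0.29 at 30 min and -0.01 at 60 min. Leaving out PBS replicate 1 or 2, sensitized replicate 1, 30 min replicate 1 or any 1 of the 60 min libraries moved it by over 1.5 times, within -0.25 to -0.06.

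Fat absorption showed more members with a small p. Of 18 genes 16 were below 0, and the median was -0.25. Of the 18, 7 had an unadjusted p under 0.05, all lower (5.8% of all genes in that direction). Without PBS replicate 1 these were 11, and without sensitized replicate 1 they were 4. Fabp1, a cytosolic fatty acid carrier, ran from 142 to 310 CPM (median 245) in the unchallenged and from 95.8 to 216 CPM (median 124) in the early challenged libraries, with a log2 fold change of -0.73 ± 0.22 (edgeR adjusted p = 0.197). Apoa4, an apolipoprotein of chylomicrons, ran from 818 to 1982 CPM (median 1698) and from 723 to 1240 CPM (median 1008), with -0.65 ± 0.22, and Fabp2, the intestinal fatty acid carrier, was at -0.48 ± 0.17. In all 3 genes the groups overlapped, and PBS replicate 1 lay within the range of the challenged libraries. Chosen after their values were seen, the retinol carrier Rbp2 and the lipase cofactor Apoc2 were at -0.68 ± 0.15 and -0.93 ± 0.20. Of 19 PPARα and fatty acid oxidation genes 14 were below 0, with a median of -0.10, Acadm, a fatty acid dehydrogenase, at -0.25 ± 0.10 and the liver and gut factor Creb3l3, a member of the villus tip list, at -0.43 ± 0.16. The PPARα and fatty acid oxidation median moved by over 1.5 times, within -0.17 to -0.04, without PBS replicate 1 or 3, sensitized replicate 2 or 60 min replicate 1 or 3.

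Detoxifying enzymes gave a uniform list. All 18 tested glutathione transferases were below 0, with a median of -0.26. Of the 18, 9 had an unadjusted p under 0.05, all lower (5.8% of all genes), and 5 did without sensitized replicate 1. Gsta4, which clears lipid aldehydes, ran from 24.9 to 36.8 CPM (median 27.1) and from 13.5 to 23.9 CPM (median 20.2), without overlap, and its log2 fold change was -0.55 ± 0.14 (edgeR adjusted p = 0.146). At 120 min Gsta4 was at 32.6 to 40.9 CPM. Gstk1, a mitochondrial and peroxisomal transferase, was at -0.43 ± 0.10 and Mgst2, a microsomal one, at -0.27 ± 0.09. Of 18 cytochrome P450 and other xenobiotic genes 16 were below 0, with a median of -0.18, and Aadac, an esterase, was lower by -0.31 ± 0.07 without overlap. The cytochrome P450 and xenobiotic median was -0.29 at 30 min and 0.01 at 60 min, and it was -0.27 without PBS replicate 1 and -0.06 without sensitized replicate 1.

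Goblet cell genes were lower. Of 16 tested 15 were below 0, with a median of -0.35, and 4 had an unadjusted p under 0.05, all lower (5.8% of all genes). Clca1, a secreted mucus protease, ran from 891 to 1739 CPM (median 1387) in the unchallenged and from 699 to 1096 CPM (median 742) in the early challenged libraries, with overlap. Its log2 fold change was -0.75 ± 0.19 (edgeR adjusted p = 0.146). Zg16, a lectin of mucus, was at -0.65 ± 0.24, Guca2a, the precursor of guanylin, at -0.40 ± 0.16 and Muc2, the main mucin, at -0.21 with an unadjusted edgeR p of 0.365. The goblet cell median was -0.22 without PBS replicate 1, the library with the highest goblet level (8.24, mean log2 CPM), and -0.47 without 30 min replicate 1. Members with an unadjusted p under 0.05 numbered 2 without PBS replicate 1, sensitized replicate 3 or 30 min replicate 2, 8 without PBS replicate 2 and 10 without 30 min replicate 1. In the last of these fits 8.35% of all genes had such a p in the lower direction, and edgeR called 1 goblet gene lower, Clca1 (0.245% of all genes).

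Hormone cell genes had 13 of 17 members below 0, with a median of -0.30 and none of these with an unadjusted p under 0.05. The enteroendocrine level was 1.42 (mean log2 CPM) in 60 min replicate 3 and 2.42 to 3.39 in the other 5 early challenged libraries. Without that library the median was -0.11, and the median summed level was 287 CPM with and 290 CPM without early challenge. Reg4, a lectin of secretory cells, was higher by 0.54 ± 0.20 and overlapped.

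Transport and junction genes differed one by one. Slc9a3, the apical sodium-proton exchanger that absorbs salt, ran from 128 to 180 CPM (median 138) in the unchallenged and from 97.6 to 126 CPM (median 119) in the early challenged libraries, without overlap. Its log2 fold change was -0.36 ± 0.10 (edgeR adjusted p = 0.171). Slc12a2, the basolateral chloride importer of secretion, was higher by 0.39 ± 0.15 and overlapped. Over the ion transport list as a whole 7 of 14 were above 0 and 7 below. Of the 14, 4 had an unadjusted edgeR p under 0.05 in the higher and 1 in the lower direction. The shares of all genes were 7.95% and 5.8%. The higher members with such a p numbered 2 without PBS replicate 1, sensitized replicate 3 or 60 min replicate 2. The list median was -0.0032 and ran from -0.058 to 0.042 when single libraries were left out. Of 15 tight junction genes 10 were below 0, with a median of -0.16 that was -0.098 without 60 min replicate 3, and Cldn4, a claudin, was at -0.71 ± 0.29.

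Interferon-stimulated genes had 14 of 17 members below 0, with a median of -0.34, and 3 had an unadjusted p under 0.05, all lower (5.8% of all genes). Beside Oasl1, Irf7, the factor that amplifies interferon production, was at -0.42 ± 0.14. The median of the interferon-stimulated genes was -0.53 without 30 min replicate 1, -0.22 without 30 min replicate 2 and -0.13 without sensitized replicate 3. Of the 17 members, 1, Oasl1, was lower without overlap. Another 5 innate immune and stress genes were lower without overlap, as were 83 of all 13774 genes (0.603%). They were chosen for their values after these were seen, so their number is no result about immune genes. Cxcl11, a chemokine for T cells, ran from 2.09 to 3.58 CPM (median 3.03) and from 0.699 to 1.65 CPM (median 1.31), with a log2 fold change of -1.25 ± 0.28. Il18, an epithelial cytokine matured by caspase-1, ran from 32.3 to 40.3 CPM (median 37.6) and from 19.7 to 31.96 CPM (median 25.2), with -0.55 ± 0.12, and Casp1 itself was at -0.25 ± 0.06. Helz2, an interferon-induced helicase, was at -0.39 ± 0.10 and the 14-3-3 protein gene Sfn at -0.68 ± 0.14. Nfkb2, an NF-κB subunit, was at -0.37 ± 0.10 and overlapped, and 12 of 16 NF-κB and inflammatory targets were below 0, with a median of -0.10. That median was 0.10 at 30 min and -0.38 at 60 min and ran from -0.26 without 30 min replicate 1 to -0.0038 without 60 min replicate 3. It also moved by over 1.5 times without PBS replicate 1, sensitized replicate 2, 30 min replicate 2 or 60 min replicate 1 or 2. Il33, an alarmin of type 2 immunity, overlapped widely, at 13.6 to 37.5 CPM against 11.8 to 25.2 CPM.

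Most mast cell genes were too low to test, and 5 of 13 could be tested. Of these 5, 2 were above 0 and 3 below. Their median was -0.13 and ran from -0.34 to 0.08 when single libraries were left out. Hdc, which makes histamine, ran from 0.220 to 1.02 CPM (median 0.569) in the unchallenged and from 1.06 to 2.08 CPM (median 1.54) in the early challenged libraries. The groups did not overlap, and the log2 fold change was 1.31 ± 0.35 (edgeR adjusted p = 0.158), with 0.92 against the sensitized controls alone and 1.82 against the PBS controls alone. Hdc was at 1.26 to 2.14 CPM at 120 min. The mucosal mast cell proteases did not follow it. Mcpt1 ran from 1.89 to 14.9 CPM (median 8.76) and from 3.20 to 13.2 CPM (median 5.25), with -0.41 ± 0.48, and Mcpt2 was at -0.36 ± 0.55. Cpa3, Fcer1a, Ms4a2, Tpsb2, Mcpt4 and Cma1 were too low to test, and Tpsab1 was at 0 in all 12 libraries. The list summed to 25.7 to 58.8 CPM in the unchallenged and 31.8 to 65.3 CPM in the early challenged libraries.

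Blood transcripts had the list median farthest from 0 of the 50 lists. All 5 tested erythroid genes were below 0, with a median of -1.50, and 4 had an unadjusted p under 0.05, all lower (5.8% of all genes). Hbb-bs, an adult β-globin, ran from 14.9 to 37.9 CPM (median 30.3) in the unchallenged and from 3.61 to 22.3 CPM (median 4.86) in the early challenged libraries, with a log2 fold change of -1.72 ± 0.44 (edgeR adjusted p = 0.158). Hbb-bt and Hba-a1 were at -1.60 ± 0.45 and -1.46 ± 0.54, and reads of near-identical globins may be divided wrongly. The list summed to 73.9 to 177 CPM without challenge, to 14.3 to 54.3 CPM in 5 early challenged libraries and to 140 CPM in 60 min replicate 3. Without that library the list median was -2.16.

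Markers of other cells in the isolates overlapped between the groups. T cell and intraepithelial lymphocyte genes had 17 of 19 members below 0, with a median of -0.32 and 0 at an unadjusted p under 0.05 (edgeR), and their summed level was 87.0 to 315 CPM without and 47.2 to 307 CPM with early challenge. The T cell median was 0.11 at 30 min and -0.99 at 60 min. It ran from -0.64 without 30 min replicate 1 to -0.15 without sensitized replicate 3, and it also moved by over 1.5 times without 30 min replicate 2 or 3 or 60 min replicate 1 or 2. Macrophage and dendritic cell genes had 8 of 14 above 0, with a median of 0.05 that ran from -0.21 to 0.23 when single libraries were left out. Stromal, endothelial and muscle genes had 4 of 4 tested above 0, of 15, with a median of 0.23 that rested on 30 min replicate 1. It was -0.17 without that library, 0.73 at 30 min and -0.14 at 60 min, and the median summed level was 18.4 CPM with and 21.2 CPM without early challenge. The part of these cells in the differences above was not tested. The sum of general epithelial markers was 14451 to 15840 CPM without and 13111 to 15764 CPM with early challenge.

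The 2 early times were compared directly to see how alike the pooled libraries were. Between 60 and 30 min edgeR called 0 of 13774 genes, with 610 (4.43%) at an unadjusted p under 0.05 and a lowest adjusted p of 0.843, and limma-voom called 0 with 612. The edgeR count of 610 depended on single libraries. It was 2337 without 60 min replicate 1, 1148 without 30 min replicate 2 and 284 without 30 min replicate 1. Each time alone against the 6 controls gave 0 called genes at 30 min and 1 at 60 min, Dido1, a PHD finger protein. Dido1 ran from 43.5 to 51.9 CPM (median 45.9) in the unchallenged and from 43.4 to 90.6 CPM (median 72.3) in the early challenged libraries, with a log2 fold change of 0.20 at 30 min and 0.84 at 60 min. It was chosen after its value was seen. The difference between the times, 0.63, did not pass (edgeR adjusted p = 0.843).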

How the data were processed

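Polyadenylated RNA of dissociated jejunal epithelial cells was sequenced as paired reads of 151 bp. The submitters' processing notes name cutadapt 1.18 for trimming, Salmon 1.2.1 for quantification and build mm10. The transcript annotation release was not named in the sources used here. Each deposited table lists 139058 transcripts with an estimated count, made by the authors with Salmon, per the file headers. The same tables hold the authors' TPM and the length and effective length in bases. TPM served only as weights for effective length in an alternative fit.

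Counts were summed per gene with GENCODE M21 (GRCm38). Of the transcripts 137943 matched a gene, 137334 of them with their version, and 1115 did not and were left out. Unmatched transcripts held 0.374% to 0.602% of a library. The sums for 52844 genes were rounded to whole numbers. Genes were kept by edgeR's filterByExpr, and libraries were scaled by TMM. The 12 libraries were fitted with edgeR 4.0.16 (robust glmQLFit and glmQLFTest, 10 residual degrees of freedom, biological coefficient of variation 0.241) in R 4.3.3. Values given for a single time come from a fit with 4 group means, set against the mean of both control groups. Standard errors come from the quasi-likelihood F statistic. Calls are genes whose p, adjusted by Benjamini and Hochberg's method across every gene tested, is under 0.05. Levels are in CPM, and log2 CPM used a prior count of 2. The test was checked on simulated counts. Alternatives used DESeq2 1.42.0, limma 3.58.1 and sva 3.50.0, and tables were joined and drawn with Python 3.11.15, pandas 2.3.3 and matplotlib 3.10.9. Replicates were numbered in accession order, and no pair of libraries within a group agreed within sampling noise. Pairs across groups were not checked.

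The members, the 50 gene lists and the tests were chosen with earlier results of these data known. Since fewer than 10 genes passed, the text names the 12 smallest p with a mean of at least 2 CPM, up to 3 members of a list in order of p, and Il33, Mcpt1, Fos and Egr1. Genes named otherwise were chosen after their values were seen, except promoter matches, which are named for their match.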

Additional observations from a re-analysis of the deposited data

Results flagged for a closer look

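In 102 checks of a list level or library share over 6 libraries, 10 had a library far from the other 5, its gap to the nearest exceeding Dixon's 95% critical value, where chance flags about 1 group in 20. In the early challenged group, 60 min replicate 3 stood out for the mitochondrial share (33.24% of counts), mitochondrially encoded genes (mean log2 CPM 14.27), immediate early genes (7.33) and glucocorticoid-induced genes (5.24). In the same group 30 min replicate 1 stood out for ER chaperones (7.00), where it was highest, and 30 min replicate 3 for hypoxia and glycolysis genes (5.56). Among the unchallenged libraries, PBS replicate 1 stood out for Paneth cell genes (8.79, the highest) and for hexose transport and fructose genes (7.09, the lowest). Sensitized replicate 3 was low for DNA replication genes (4.13) and sensitized replicate 2 for villus tip genes (6.33).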

How the results depend on the processing

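Most named genes were chosen for a small p or after their values were seen, and the alternatives use largely the same libraries. Their signs were therefore likely to be kept, and the count below is no independent support. Of 105 named genes, 102 kept the sign of their log2 fold change under all 27 alternatives. The exceptions were Hsp90ab1 (-0.082 to 0.018 with single libraries left out), Fos (0.0072 with 30 min replicate 1 and 60 min replicate 3 both left out, an alternative chosen after seeing the data) and Egr1 (-0.011 with a surrogate variable as covariate, -0.066 to 0.094 with single libraries left out). Of the 50 list medians, 36 kept their sign under all 27 alternatives, and leaving out 1 library moved 32 of them by over 1.5 times or past 0. Of 1349 list medians under an alternative, 12, in 8 lists, moved by more than the SD of the list level between libraries of a group. The count of called genes, 0 in the main edgeR test, was 207 with DESeq2, 11 with the mitochondrial share as a covariate, 1 with the 60 min libraries alone and 1, Csrnp1, with the same 2 libraries left out, and it was 0 with DESeq2's size factors in edgeR, limma-voom, no filter on low counts, all 15 libraries, 4 group means, either control alone, the 30 min libraries alone, a transcript length offset, mitochondrial genes removed and a surrogate variable. Leaving out single libraries gave 0 to 115 called genes, with 23 without PBS replicate 1 and 115 without 30 min replicate 1. The causes of these differences were not tested. Between 60 and 30 min, leaving out single libraries gave 0 to 1 called genes, 1 without 30 min replicate 1. Genes at an unadjusted edgeR p under 0.05 between these times then numbered 284 to 2337, against 610 with all libraries. In the pooled comparison, genes at an unadjusted edgeR p under 0.05 numbered 1894 of 13774, where chance alone gives about 689. They numbered 3255 of 28019 with no filter and 998 of 14387 with the 30 min libraries alone. Against PBS mice alone they numbered 749 of 14485, near the share that chance gives, with a lowest adjusted p of 0.914. Against sensitized mice alone they numbered 1381 of 14383, with a lowest adjusted p of 0.164. No paired analysis was possible because the labels give no replicate numbers shared between groups.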

Other observations

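Some gene groups not described above had small differences in the pooled comparison. Of all genes, 7.95% had an unadjusted edgeR p under 0.05 in the higher and 5.8% in the lower direction. Sterol synthesis genes had 16 of 20 members above 0, with a median log2 fold change of 0.08 (0.05 without PBS replicate 3) and 1 at an unadjusted edgeR p under 0.05. Circadian clock genes had 10 of 18 above 0, with a median of 0.02 that ran from -0.09 to 0.07 when single libraries were left out. Nuclear genes of oxidative phosphorylation were lower on balance, with 17 of 18 below 0, a median of -0.13 and 2 at an unadjusted edgeR p under 0.05. Their mean log2 CPM ran from 7.78 to 7.88 in the unchallenged and from 7.47 to 7.80 in the early challenged libraries. Mitochondrially encoded genes had 11 of 13 above 0, with a median of 0.14 that was -0.26 without 60 min replicate 3, the library with the largest mitochondrial share. NRF2 antioxidant genes were also lower on balance, with 14 of 16 below 0, a median of -0.14 (-0.048 without 60 min replicate 3) and 3 at an unadjusted edgeR p under 0.05.

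Cybrd1, the duodenal ferric reductase of iron uptake, ran from 1.41 to 2.64 CPM in the unchallenged and from 2.74 to 4.70 CPM in the early challenged libraries, without overlap (log2 fold change 0.77 ± 0.21, edgeR adjusted p = 0.165). It is a marker of the proximal small intestine, and the 6 tested genes of that list had a median of 0.02.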
